A study of Mus musculus with 24 samples.

Results

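The genes described here are 10 members of the Egr and AP-1 families of transcription factors, namely Egr1, Egr2, Egr3, Fos, Fosb, Fosl2, Jun, Junb, Jund and Atf3, followed across the 8 groups of an RNA sequencing study of mouse blood stem and progenitor cells. They were chosen by gene symbol, and each symbol matched 1 row of a table of 56748 genes. The table holds read counts of 24 libraries, 3 for each combination of genotype (WT or KO) with population (HSC, MPP1, MPP2 or MPP4). HSC denotes haematopoietic stem cells and MPP multipotent progenitors, and all were sorted from bone marrow, although the tissue entry reads blood. Every group, WT included, came from animals treated with tamoxifen, an agent that switches on inducible Cre recombinase. The labels give no strain, age, allele or Cre driver and do not name the gene removed. Whether replicate libraries came from separate animals is not said either, so the p-values reflect variation among these libraries alone, and that may be technical.

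Egr proteins are zinc finger activators that bind GC-rich DNA. AP-1 is a dimer of a Jun protein with a Fos, Jun or ATF partner, and it binds a short palindromic site. Most of these genes are immediate early genes, which are switched on within minutes of a signal through MAP kinases and serum response factor (SRF) without new protein synthesis, and whose transcripts carry signals for rapid decay. In the blood stem cell compartment Egr1 is known for keeping stem cells quiescent and in place in the marrow, and Junb for restraining their proliferation and myeloid output. Handling and dissociation of tissue are also known to induce this set of genes.

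The total count per library ranged from 2540511 to 3807003. Of all genes, 21964 had enough counts to be tested, and all 10 members were among them. Levels are given as CPM, counts per 1000000 counts of library totals scaled by the trimmed mean of M-values (TMM). Changes are log2 fold changes ± SE from the quasi-likelihood test of edgeR, with Benjamini-Hochberg adjusted p-values over all genes tested, and called at an adjusted p below 0.05. The study's title concerns P-bodies, cytoplasmic granules that hold mRNA, and Ddx6, a helicase needed to form them, was looked at because the labels name no target. Its counts were not lower in KO libraries, at 154 to 319 (WT) and 194 to 308 (KO). On average over the populations Ddx6 rose by 0.32 ± 0.09 in log2 units (adjusted p = 0.00355 in edgeR). In that comparison 22.9% of all genes rose, and 51.6% of those that averaged 20 CPM or more. Counts summed over a gene do not show whether a part of it was removed, so these values cannot tell whether Ddx6 was the target. In both genotypes, libraries labelled MPP2 carried more of the lymphoid transcripts usual for MPP4 than libraries labelled MPP4. Megakaryocyte and erythroid transcripts, usual for MPP2, were higher in libraries labelled MPP4. Summed lymphoid markers averaged 3622 CPM in WT MPP2 and 1503 CPM in WT MPP4, and 10089 and 1827 CPM in KO. Summed megakaryocyte and erythroid markers averaged, in the same order, 112 and 631 CPM, and 92.6 and 359 CPM. Lymphoid markers were lower in HSC (195 CPM in WT, 119 CPM in KO) than in either MPP4-labelled group. The summed megakaryocyte and erythroid markers were higher in KO HSC, at 580 CPM, than in KO MPP4. Gene by gene, 2 of 9 tested were called higher in KO MPP4 than in KO HSC and 1 lower (17.6% and 12.2% of all genes). Their median log2 fold change was 0.25. The list holds Vwf, which is also among the HSC markers counted below. Flt3, a receptor of lymphoid-primed progenitors, was at 1080 to 1182 CPM in WT MPP2-labelled libraries and at 54.5 to 81.0 CPM in WT MPP4-labelled libraries. Gata1, the erythroid and megakaryocyte factor, was at 1.59 to 3.74 CPM in the former and 28.5 to 53.8 CPM in the latter. The labels are kept below, and each comparison of genotypes is made within 1 label.

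The promoter windows of the members are shown because the genes moved together, and a reader may want to see which letters they share. Of the 10 genes, 8 had a window in the RefSeq-derived table (build GRCm38.p6). The 250 bases before the start of Fosb, of Fosl2, of Fos and of Jun are printed from 5′ to 3′ on the gene's own strand. Capitals mark the Egr site searched (GCGNGGGCG) in Fosb and Fosl2 and the TATA box (TATAAA) in Fos. The Jun window held no match to any motif searched and is shown for contrast. Fosb lies on the minus strand at chr7:19310046-19310295, Fosl2 on the plus strand at chr5:32136222-32136471, Fos on the plus strand at chr12:85473640-85473889 and Jun on the minus strand at chr4:95052223-95052472.
Fosb: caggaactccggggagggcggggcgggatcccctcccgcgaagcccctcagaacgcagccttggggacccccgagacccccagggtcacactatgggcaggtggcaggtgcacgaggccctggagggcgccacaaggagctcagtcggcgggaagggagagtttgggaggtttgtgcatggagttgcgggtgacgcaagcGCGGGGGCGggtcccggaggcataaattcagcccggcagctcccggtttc
Fosl2: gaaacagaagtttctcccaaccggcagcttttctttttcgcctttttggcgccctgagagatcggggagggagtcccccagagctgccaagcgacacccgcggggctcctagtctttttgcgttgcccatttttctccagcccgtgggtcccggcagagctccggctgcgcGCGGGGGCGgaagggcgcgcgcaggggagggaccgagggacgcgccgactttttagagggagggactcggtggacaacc
Fos: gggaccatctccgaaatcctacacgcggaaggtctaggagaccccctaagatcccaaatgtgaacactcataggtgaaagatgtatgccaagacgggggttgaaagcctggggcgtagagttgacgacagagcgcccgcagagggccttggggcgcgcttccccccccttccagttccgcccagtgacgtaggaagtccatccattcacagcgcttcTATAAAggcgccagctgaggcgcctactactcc
Jun: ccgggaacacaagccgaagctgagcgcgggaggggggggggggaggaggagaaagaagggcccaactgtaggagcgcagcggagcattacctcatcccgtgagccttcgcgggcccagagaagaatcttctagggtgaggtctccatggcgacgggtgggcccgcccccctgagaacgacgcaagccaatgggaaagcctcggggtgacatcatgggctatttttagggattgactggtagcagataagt

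The Egr site began 50 bases before the start of Fosb (-50 to -42) and 79 bases before that of Fosl2 (-79 to -71), and 5.55% of all 32851 windows held one on either strand. The TATA box of Fos lay at -33 to -28, and that of Junb began at the start itself, at +1 to +6. TATAAA was found in 13.6% of windows. None of the 8 members held the AP-1 site TGANTCA (7.81% of windows) or the cyclic AMP response element TGACGTCA (1.79% of windows). The CArG box, to which SRF binds, was found in 1 member, Egr2, and in 1.63% of windows. Egr2 had more than 1 window, so a match per gene and the share per window are not alike. Bases farther than 250 before the start, and the promoters of Egr1 and Egr3, were not searched. Matches were sought on both strands over the window up to 50 bases past the start, and they describe letters and not binding.

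Averaged over the populations, 9 of the 10 members fell in KO libraries and Egr2 was not called. In no population was a member called higher, and Egr2 alone had log2 fold changes above 0, of 0.18 in HSC and 0.77 in MPP4, neither of them called. In the same comparison 53.2% of all genes tested were called in either direction, 30.3% fell, and 19.1% of the 8510 genes that averaged 20 CPM or more. The median log2 fold change of the 10 members was -2.07, against -0.22 over all genes tested. When HSC and MPP1 alone were averaged, 9 of the 10 fell, and 26.2% of all genes did. Within populations 9 members fell in HSC, where 24.8% of all genes did, 7 in MPP1 (4.9% of all genes), 8 in MPP2 (4.17%) and 4 in MPP4 (6.47%). The count for MPP2 was 5 without the third KO MPP2 library, when 2.88% of all genes fell. That for MPP4 was 7 with median-of-ratios size factors (8.77% of all genes fell and 6.92% rose, against 6.47% and 11.4% with TMM) and 8 with DESeq2 (11.3% fell). The members' median change was -2.07 in HSC, -1.95 in MPP1, -2.46 in MPP2 and -1.49 in MPP4, against -0.31, -0.10, -0.07 and -0.08 over all genes. Scaling by median-of-ratios size factors put the median of all genes at -0.46 in HSC, -0.20 in MPP1, -0.10 in MPP2 and -0.24 in MPP4. Every KO library lay below every WT library for 8 members in HSC (30.8% of all genes), 9 in MPP1 (17.8%), 9 in MPP2 (13.8%) and 8 in MPP4 (15.4%).

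**Figure D1:**
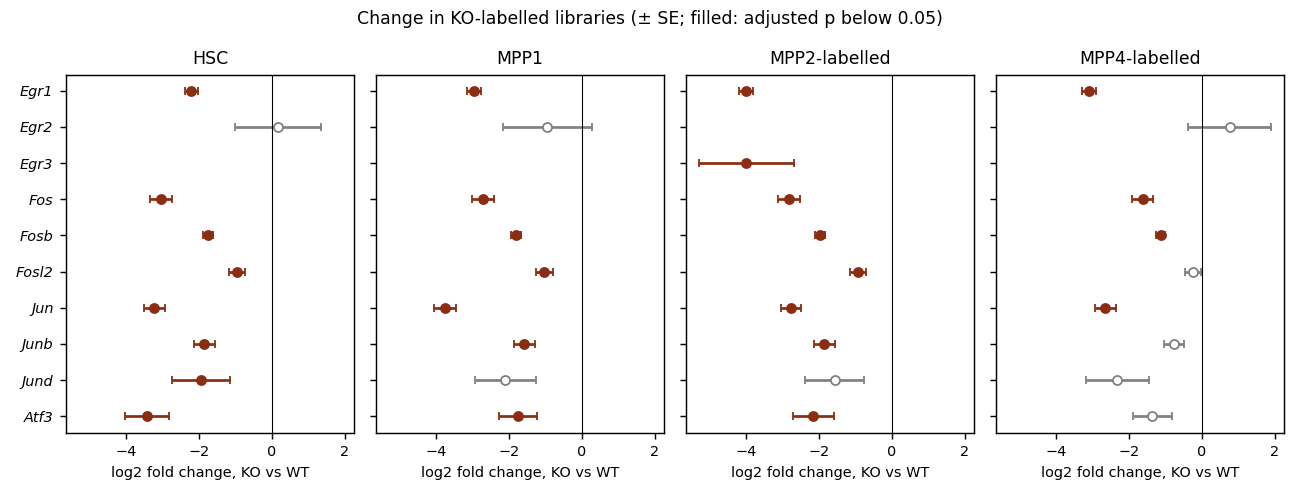
Log2 fold change of each member in KO against WT libraries (x axis) for each population (panels), with bars of 1 SE from edgeR's quasi-likelihood test and filled points for genes called at an adjusted p below 0.05. Egr1, Fos, Fosb and Jun lay below 0 with filled points in all 4 populations, and a gene is left out of a panel where no library of 1 genotype had more than 3 counts.

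Together the 10 genes took 0.162% ± 0.00711 (SD, n = 3) of the counts in WT HSC and 0.0323% ± 0.000869 in KO HSC. WT and KO MPP1 had 0.111% ± 0.00153 and 0.0222% ± 0.000322. They took 0.113% ± 0.00252 and 0.0196% ± 0.00113 in MPP2 and 0.0733% ± 0.00706 and 0.0226% ± 0.00229 in MPP4. The KO share was below the WT share in each population, by more than the SD of either group. In sorted bulk samples, fewer cells expressing a gene and less of its RNA per cell cannot be told apart.

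Egr1 (ENSMUSG00000038418.8) was one of the most abundant members. In WT HSC it was at 463, 482 and 497 CPM, and in KO HSC at 115, 85.5 and 112 CPM. In MPP1 the WT libraries held 278, 285 and 301 CPM and the KO libraries 31.1, 48.8 and 31.6 CPM. In MPP2 the WT libraries held 483, 478 and 476 CPM and the KO libraries 32.2, 18.7 and 39.7 CPM. Over all 24 libraries the genotypes did not overlap: the lowest WT library, of MPP4, held 171 CPM and the highest KO library, of HSC, 115 CPM. In MPP4 the WT libraries held 214, 171 and 178 CPM, and the KO libraries 30.1, 22.2 and 13.3 CPM. The log2 fold change of Egr1 was -2.20 ± 0.18 in HSC (adjusted p = 1.42e-13), -2.95 ± 0.19 in MPP1 (4.94e-16), -4.0 ± 0.20 in MPP2 (8.75e-20) and -3.09 ± 0.20 in MPP4 (7.31e-16) by edgeR's quasi-likelihood test. By the p-value of the averaged comparison Egr1 stood at rank 3 of 21964 genes. The size of its fall differed between the populations, smallest in HSC and largest in MPP2 (interaction of genotype with population, adjusted p = 1.08e-05, edgeR). That interaction was called for 17.7% of all genes and 34.3% of those with at least 20 CPM, and for 3 members, Egr1, Fosb and Fos.

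**Figure D2:**
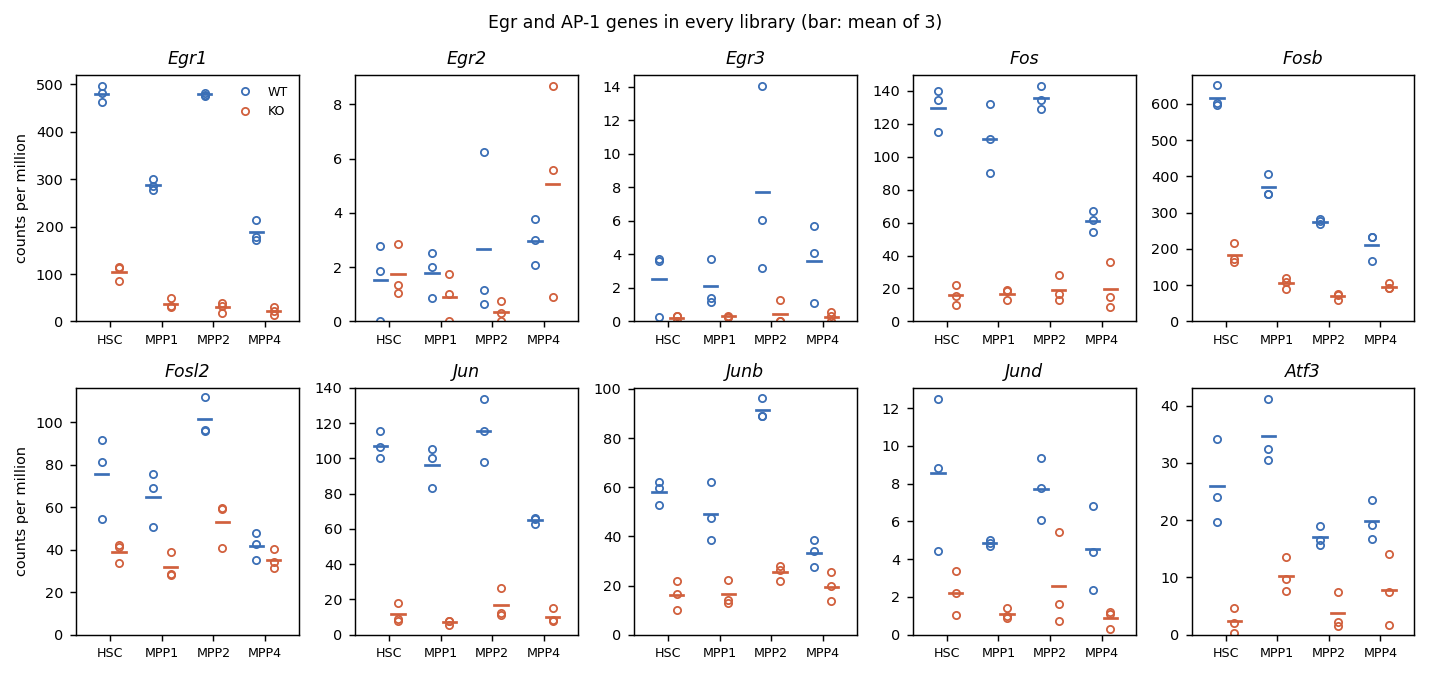
Level of each member (CPM on a linear axis that starts at 0, with a range of its own in each panel) in each of the 24 libraries, by population, with WT in blue, KO in orange and a bar at the mean of 3. For Egr1, Fos, Jun and Atf3 every KO library of any population lies under every WT library, whereas for Egr2 the genotypes mix.

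The order of the Egr1 levels over the 8 groups was WT HSC (480 ± 17 CPM, SD, n = 3), WT MPP2 (479 ± 3.42), WT MPP1 (288 ± 11.9), WT MPP4 (188 ± 23.2), KO HSC (104 ± 16.3), KO MPP1 (37.2 ± 10.1), KO MPP2 (30.2 ± 10.7) and KO MPP4 (21.9 ± 8.41). WT HSC and WT MPP2 overlapped, as did KO MPP1 with KO MPP2 and KO MPP2 with KO MPP4. The other neighbours in that order did not overlap. Egr1 was thus lower in KO MPP2 than in KO HSC although the WT groups of both labels were at the same level.

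Egr2 and Egr3 are close relatives of Egr1 with the same DNA-binding domain. Egr2, a factor of nerve myelination and lymphocyte tolerance, ranged from 0 to 20 counts per library in WT and from 0 to 28 in KO, and no comparison called it. Egr3 was low as well. Its counts were 13, 1 and 13 in WT HSC, 4, 13 and 5 in WT MPP1, 45, 11 and 19 in WT MPP2 and 19, 4 and 12 in WT MPP4. In KO libraries they were 1, 0 and 1 in HSC, 1, 1 and 1 in MPP1, 0, 4 and 0 in MPP2 and 2, 1 and 0 in MPP4. The genotypes overlapped only in HSC, through the second WT library. edgeR's adjusted p for Egr3 was 0.0469 in HSC, 0.192 in MPP1, 0.0473 in MPP2, 0.0581 in MPP4 and 5.02e-05 averaged, and no fold is given because no library of 3 KO groups had more than 3 counts. The HSC call was lost without any 1 of the 6 HSC libraries except the second of WT, with an adjusted p of up to 0.143 (edgeR). The MPP2 call was lost without any 1 of the 6 MPP2 libraries except the second of KO, with an adjusted p of up to 0.224, and without a filter on low counts (0.0599).

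Fos, the founding AP-1 subunit, forms no dimer with itself and binds DNA beside a Jun protein. In HSC it was at 140, 134 and 115 CPM in WT and at 10.1, 22.0 and 15.5 CPM in KO. In MPP1 the values were 132, 90.1 and 111 CPM against 18.7, 19.2 and 12.9 CPM, and in MPP2 129, 143 and 135 CPM against 16.7, 12.9 and 28.1 CPM. In MPP4, where WT held less Fos, they were 54.1, 61.9 and 67.3 CPM against 15.1, 8.69 and 35.9 CPM. No KO library of any population reached the lowest WT library of 54.1 CPM. Fos fell in each population, with log2 fold changes of -3.03 ± 0.31 in HSC, -2.71 ± 0.30 in MPP1, -2.82 ± 0.30 in MPP2 and -1.62 ± 0.30 in MPP4 (adjusted p = 6.87e-05, edgeR). The third KO MPP4 library, at 35.9 CPM, was the highest of all KO libraries. Without that library the change in MPP4 was -2.35. The interaction for Fos (adjusted p = 0.0459, edgeR) then gave 0.562, and it was also lost without any 1 of 12 other libraries, at up to 0.111.

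Fosb, a Fos relative with a full-length and a truncated form, was the most abundant member in WT HSC by CPM. It was at 602, 651 and 596 CPM in WT HSC and at 171, 216 and 164 CPM in KO HSC. WT MPP1 held 351, 407 and 350 CPM and KO MPP1 108, 89.9 and 120 CPM, and WT MPP2 held 276, 283 and 268 CPM against 76.8, 74.1 and 58.5 CPM. In MPP4 the levels were 232, 166 and 233 CPM against 105, 91.7 and 91.2 CPM. Within each population the genotypes did not overlap, but the second KO HSC library, at 216 CPM, exceeded the lowest WT MPP4 library, at 166 CPM. The log2 fold change of Fosb was -1.75 ± 0.13 in HSC, -1.80 ± 0.13 in MPP1, -1.98 ± 0.14 in MPP2 and -1.13 ± 0.13 in MPP4 (adjusted p = 1.50e-08, edgeR), and these changes differed between populations (interaction, adjusted p = 0.0035, edgeR). Its point estimates were smaller than those of Fos in all 4 populations, a difference that was not tested.

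Fosl2, or Fra-2, lacks the strong transactivation domain of Fos and is induced later. It was at 81.2, 91.8 and 54.6 CPM in WT HSC against 33.8, 42.2 and 41.4 CPM in KO HSC. In MPP1 it was at 75.6, 50.5 and 68.9 CPM against 39.1, 28.4 and 28.4 CPM, and in MPP2 at 96.4, 112 and 96.0 CPM against 59.4, 59.6 and 40.9 CPM. In these 3 populations each KO library lay below each WT library, with log2 fold changes of -0.95 ± 0.23, -1.03 ± 0.23 and -0.93 ± 0.22, all called. In MPP4 the genotypes overlapped, at 47.8, 35.0 and 42.7 CPM against 40.4, 34.2 and 31.6 CPM (log2 fold change -0.24 ± 0.23, adjusted p = 0.512, edgeR). The MPP2 call had an adjusted p of 0.052 without the third KO MPP2 library.

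Jun, the most potent activator among the Jun proteins and a target of JNK kinases, was at 100.3, 115 and 106 CPM in WT HSC and at 18.1, 7.77 and 8.85 CPM in KO HSC. In MPP1 it was at 100.3, 105 and 83.4 CPM against 5.35, 8.04 and 7.89 CPM. In MPP2 it was at 134, 98.2 and 115 CPM against 12.4, 26.7 and 11.3 CPM. The separation held across populations: no KO library exceeded 26.7 CPM and no WT library was under 63.1 CPM. In MPP4 the values were 63.1, 65.4 and 65.9 CPM against 15.1, 8.09 and 7.73 CPM. Jun fell in each population, with log2 fold changes of -3.22 ± 0.29 in HSC, -3.75 ± 0.31 in MPP1, -2.77 ± 0.28 in MPP2 and -2.64 ± 0.29 in MPP4 (adjusted p = 4.98e-09, edgeR). The interaction with population was not called (adjusted p = 0.156, edgeR). A gene on the opposite strand, Junos, overlaps Jun, and because the strand setting of the counting is not given, reads of the 2 cannot be told apart.

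Junb, which also dimerizes with Fos proteins but activates more weakly than Jun, was at 52.6, 59.7 and 62.3 CPM in WT HSC and 22.0, 10.1 and 16.4 CPM in KO HSC. WT MPP1 held 62.0, 47.3 and 38.4 CPM and KO MPP1 14, 22.4 and 12.9 CPM. WT MPP2 held 96.1, 89.0 and 89.0 CPM and KO MPP2 27.9, 21.9 and 26.2 CPM. MPP4 had the narrowest gap, with 38.6, 33.9 and 27.7 CPM in WT and 25.4, 19.8 and 13.6 CPM in KO. Junb fell in the first 3 populations, with log2 fold changes of -1.85 ± 0.29 in HSC, -1.58 ± 0.29 in MPP1 and -1.85 ± 0.28 in MPP2 (adjusted p = 6.43e-06, edgeR). In MPP4 the change of -0.77 ± 0.28 was not called (adjusted p = 0.0539, edgeR), although the groups did not overlap, and it was called with median-of-ratios size factors, with DESeq2 and with the replicate block (adjusted p = 0.0477, edgeR). The gene overlaps Prdx2 on the opposite strand.

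Jund, the Jun protein that is usually steady rather than inducible, had few reads, with 8 to 47 counts in WT and 1 to 14 in KO libraries. It was at 2.39 to 12.5 CPM in WT and at 0.309 to 5.43 CPM in KO libraries. Averaged over the populations it fell by 1.98 ± 0.41 (adjusted p = 1.15e-04, edgeR). Of the single populations HSC alone was called, at -1.94 ± 0.80 (adjusted p = 0.0472, edgeR), and it ended under the replicate block (0.0547) and without a filter on low counts (0.132). It was also lost without any 1 of the 6 HSC libraries except the first of WT, with an adjusted p of up to 0.173 (edgeR). Jund overlaps Gm11175 on the opposite strand, so the limit given for Jun holds here too.

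Atf3, a stress-induced ATF protein that represses as a homodimer and can pair with Jun, was at 19.7, 34.2 and 24 CPM in WT HSC and at 0.349, 2.03 and 4.74 CPM in KO HSC. In MPP1 it was at 32.3, 41.1 and 30.5 CPM against 7.69, 13.5 and 9.65 CPM. In MPP2 it was at 15.6, 19.0 and 16.6 CPM against 1.55, 7.41 and 2.25 CPM. MPP4 held 16.7, 19.2 and 23.6 CPM in WT and 1.67, 14.1 and 7.42 CPM in KO. The highest KO library, at 14.1 CPM, was under the lowest WT library, at 15.6 CPM. Atf3 had log2 fold changes of -3.41 ± 0.60 in HSC (adjusted p = 1.35e-05, edgeR), -1.75 ± 0.52 in MPP1 (0.0183) and -2.15 ± 0.57 in MPP2 (0.0118). It was not called in MPP4 (-1.36 ± 0.53, adjusted p = 0.0685, edgeR), but it was without the second KO MPP4 library (-2.12, adjusted p = 0.0129), with median-of-ratios size factors (0.0428), with DESeq2 (0.0225) and with the replicate block (0.0236). Without the third KO HSC library the HSC value was -4.40, and without the second KO MPP2 library the MPP2 value was -3.14. The MPP1 call was lost without the second WT MPP1 library (0.0798) or the first (0.0904) or the third (0.0685) KO MPP1 library, and the MPP2 call without the first (0.0778) or the third (0.0696) KO MPP2 library. Atf3 overlaps Gm24748 on the opposite strand.

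Background reads moved with genotype, and their value is given here because they touch the low members. They were estimated from 1970 olfactory and vomeronasal receptor genes, which blood cells are not known to use, as counts per kb of gene span. The estimate assumes that such reads spread evenly over gene spans, which was not tested. Scaled to the span of all genes, this background made up 22.1% of counts in WT HSC and 5.55% in KO HSC, 23.8% and 13.7% in MPP1, 11.5% and 9.38% in MPP2, and 30.0% and 18.1% in MPP4. For Egr1 the background expected over its span came to between 0.105% and 3.13% of its counts in any group. The figures were 0.243% to 2.32% for Fos, 0.189% to 1.03% for Fosb, 0.269% to 4.83% for Jun and 0.451% to 2.87% for Junb. They were 2.11% to 10.5% for Fosl2 and 2.10% to 25.3% for Jund. For Egr2 it was 24.7% to 68.0% in WT groups and 17.9% to 153% in KO groups, and for Egr3 it was 6.89% to 43.6% in WT and 92.7% to 246% in KO groups. Atf3 spans 47.7 kb against 3.19 kb for Jun. Background was 23.3% to 48.4% of its counts in WT groups, and 97.4% in KO HSC, 49.9% in KO MPP1, 99.1% in KO MPP2 and 84.5% in KO MPP4. By this estimate, which assumes reads counted over the whole span, Atf3 counts in KO HSC and KO MPP2 were no higher than background. The exons of Atf3 total 2.15 kb, and the counter is not given. Were exons alone counted, less background would be expected. With the expected background subtracted, 7 members fell in HSC (4.43% of all genes), 6 in MPP1 (2.82%), 6 in MPP2 (3.1%), 5 in MPP4 (2.85%) and 9 on average (14.3%). Atf3 was then no longer called in MPP1 (adjusted p = 0.217, edgeR) or MPP2 (0.127), Egr3 in HSC (0.114) or MPP2 (0.314), or Jund in HSC (0.147), while Junb was called in MPP4 (0.0149).

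**Figure D3:**
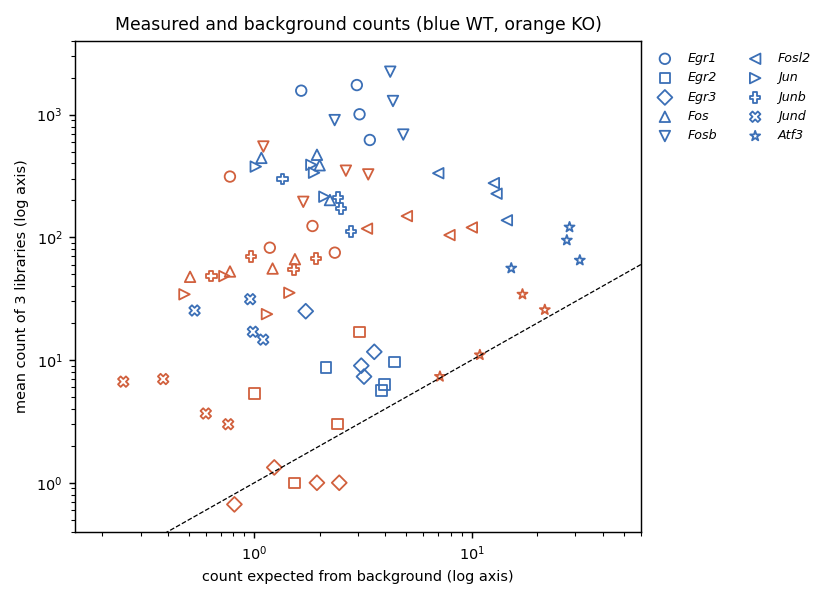
Mean count of each member in each group (y axis) against the count expected from background over its gene span (x axis), both on log axes, with 1 symbol a gene, WT in blue, KO in orange and a dashed line where the 2 are equal. Atf3 in KO HSC and KO MPP2 lies on the line, as do the KO groups of Egr3 or below it, and Egr1, Fos, Fosb, Jun and Junb lie far above it.

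Members of a family were compared with each other per kb of exon length, since a longer transcript gives more reads. The 3 Jun genes summed to 64.1 ± 6.46 CPM per kb (SD, n = 3) in WT HSC and 12 ± 3.55 in KO HSC, and the 3 Fos genes to 162 ± 10.7 and 40.2 ± 7.02. Jun made up 52.6% ± 2.30 of the Jun family total in WT HSC and 29.3% ± 5.81 in KO HSC, while the share of Junb was 39.5% ± 2.03 in WT and 57.8% ± 7.23 in KO. In MPP1 the share of Jun was 55.6% ± 3.75 and 22.7% ± 5.32, in MPP2 44.9% ± 2.90 and 29.2% ± 13.3, and in MPP4 54.1% ± 2.05 and 26.2% ± 4.16. Junb rather than Jun was thus the larger part in the mean of every KO group, whereas among WT groups it was so in MPP2 alone (49.4% ± 2.69). The exception to separate groups was MPP2, where the second KO library had a Jun share of 44.4%, within the WT range of 41.5% to 46.9%.

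Within the Fos family, Fos made up 34.1% ± 1.89 of the total per kb in WT HSC and 16.4% ± 3.75 in KO HSC. Fosl2 made up 4.81% ± 0.93 in WT HSC and 10.2% ± 1.24 in KO HSC. Its share was 5.92% ± 0.97 and 12% ± 1.63 in MPP1, 9.33% ± 0.44 and 22.3% ± 5.07 in MPP2, and 6.76% ± 0.73 and 13.7% ± 3.40 in MPP4. In each population every KO library had a larger Fosl2 share than every WT library. Fosb had the largest mean share in every group (61.2% ± 2.49 in WT HSC and 73.4% ± 3.88 in KO HSC) except WT MPP2, where Fos had (51.3% ± 0.91). Egr1 made up 96.1% to 99.0% of the Egr family in the WT group means, and 97.7% in KO HSC, 95.6% in KO MPP1 and 96.4% in KO MPP2. Its share was 75.6% ± 20.2 in KO MPP4, where its own level was lowest. The 3 libraries there had shares of 79.2%, 93.7% and 53.8%, with 20, 3 and 28 counts of Egr2. These shares are descriptions without a test.

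**Figure D4:**
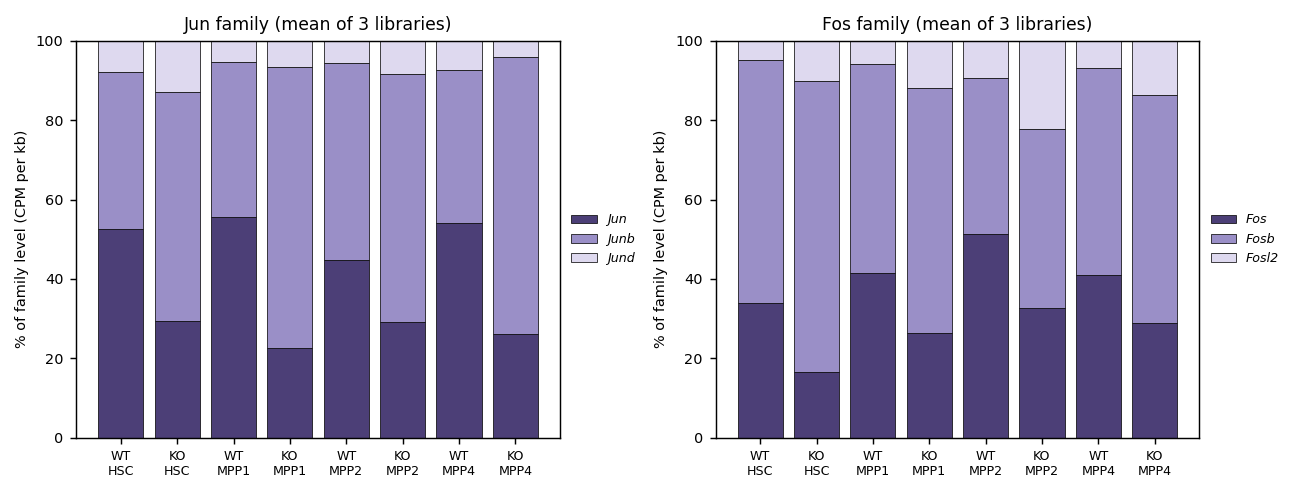
Share of each gene in its family's summed CPM per kb of exon length (y axis, percent), as stacked bars of the mean of 3 libraries in each group, for the Jun and the Fos family. In each population the Jun part is smaller and the Junb part larger in the KO bar than in the WT bar, and the Fosl2 part is larger.

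Among WT populations, the mean level was lowest in MPP4 for 7 members, Egr1, Fos, Fosb, Fosl2, Jun, Junb and Jund. Against WT HSC, 2 members were lower in WT MPP1 (1.83% of all genes), Egr1 at -0.74 ± 0.17 (adjusted p = 0.00337, edgeR) and Fosb at -0.74 ± 0.13 in log2 fold change. In WT MPP2 Fosb was the 1 member called lower (7.37% of all genes), with a log2 fold change of -1.16 ± 0.13, and Egr1 did not pass the test (-0.0040 ± 0.16). Junb (0.65 ± 0.27, adjusted p = 0.0848, edgeR) and Fosl2 (0.42 ± 0.22, 0.194) were higher there without overlap, as were 19.8% of all genes, but were not called. Fosb and Atf3 (-0.60 ± 0.51) were lower without overlap, as were 19.6% of all genes. Junb was called higher with limma-voom (0.00322) and in a fit of the 6 libraries compared (0.00651). In WT MPP4 4 members were lower (7.43% of all genes), with log2 fold changes of -1.35 ± 0.17 for Egr1, -1.09 ± 0.27 for Fos, -1.55 ± 0.13 for Fosb and -0.86 ± 0.22 for Fosl2. Jun (-0.73 ± 0.25, adjusted p = 0.0602, edgeR) and Junb (-0.80 ± 0.27, 0.0528) missed the threshold there, though no WT MPP4 library reached a WT HSC library. Of genes that averaged 20 CPM or more, 4.57% were lower than in WT HSC in WT MPP1, 13.1% in WT MPP2 and 17.2% in WT MPP4. The Fosl2 call in WT MPP4 was lost without the second WT HSC library (0.0717) or the second WT MPP4 library (0.0606). With background subtracted, the calls for Egr1 in WT MPP1 (0.0529) and Fos in WT MPP4 (0.0713) were lost.

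Among KO populations, Egr1 and Fosb were called lower than in KO HSC in each progenitor group. The log2 fold changes of Egr1 were -1.48 ± 0.19 in KO MPP1, -1.80 ± 0.19 in KO MPP2 and -2.24 ± 0.20 in KO MPP4, and those of Fosb -0.79 ± 0.13, -1.39 ± 0.14 and -0.94 ± 0.13. These 2 were all the members called lower, while 7.49%, 7.22% and 12.2% of all genes were. Of genes that averaged 20 CPM or more, as Egr1 and Fosb did, 17.8%, 15.1% and 27.6% were. Atf3 was called higher in KO MPP1 (2.08 ± 0.60, adjusted p = 0.0107, edgeR, beside 12.6% of all genes) and KO MPP4 (1.66 ± 0.61, adjusted p = 0.0349, edgeR, beside 17.6%). Both Atf3 calls were lost with background subtracted (0.227 and 0.305). The KO MPP1 call was also lost without the first KO HSC library (0.082) or the second KO MPP1 library (0.0507). The KO MPP4 call was lost with limma-voom (0.207), in a fit of the 6 libraries compared (0.185), and without the first (0.179) or the second (0.101) KO HSC library or the second (0.346) or the third (0.0524) KO MPP4 library. Without the third KO HSC library the changes were 3.07 in KO MPP1 and 2.65 in KO MPP4, and without the second KO MPP4 library the latter was 0.89. The WT and KO series each share their HSC libraries between 3 comparisons.

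Over the 24 libraries, log2 CPM of Egr1 followed most closely that of Dusp1 (Pearson r = 0.91), Fosb (0.90), Nr4a1 (0.89), Efcc1 (0.88) and Jun (0.88), among 8061 genes left of those that averaged 20 CPM or more once predicted genes, clone names and mitochondrial genes were passed over. Dusp1 encodes a MAP kinase phosphatase and Nr4a1 an immediate early nuclear receptor. Jun was followed most closely by Tmcc3 (0.92), Ptprv (0.91), Junb (0.91), Fos (0.90) and Egr1 (0.88). The libraries share genotype and population, and with the group means removed r was -0.24 for Egr1 with Fosb, 0.03 for Egr1 with Jun and -0.51 for Jun with Fos. It was 0.71 for Egr1 with Junb and 0.45 for Jun with Junb. For genes outside the members it was 0.46 for Egr1 with Dusp1, 0.18 with Nr4a1 and 0.40 with Efcc1, and 0.54 for Jun with Tmcc3 and 0.41 with Ptprv. All of these were below the values over all libraries.

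Other immediate early genes were lower as well, with 12 of 18 tested fallen and 1 risen in the average (of 22 listed). Nr4a1 fell by 2.41 ± 0.15 on the log2 scale, and Btg2, an antiproliferative gene, fell by 2.42 ± 0.16 (adjusted p = 2.55e-16, edgeR). Myc, which drives growth and is itself induced early, was the 1 that rose, by 1.36 ± 0.06 on average and by 2.09 ± 0.12 in HSC (adjusted p = 1.66e-17, edgeR). The median of the list was -1.47. These counts were the same with background subtracted. Beside this and the lists below, 22.9% of all genes rose and 30.3% fell in the average, and of genes that averaged 20 CPM or more 51.6% rose and 19.1% fell.

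The next lists hold genes that act on the members or upstream of them. The co-repressors Nab1 and Nab2 bind Egr proteins, and Nab2 is itself Egr-induced in other cells. Both rose in the average, Nab2 by 1.40 ± 0.20 (adjusted p = 2.30e-07, edgeR) and Nab1 by 0.56 ± 0.09. Nab2 rose in each population, by 1.40 ± 0.38 in HSC, 1.51 ± 0.39 in MPP1, 1.22 ± 0.39 in MPP2 (adjusted p = 0.0463, edgeR) and 1.47 ± 0.44 in MPP4. Egr4, the fourth member of the Egr family, had too few counts to be tested. Of SRF and its cofactors 5 of 6 rose, among them Srf by 1.07 ± 0.13 (1.66 ± 0.25 in HSC and 0.80 ± 0.25 in MPP2), Elk4, a cofactor that MAP kinases phosphorylate, by 0.66 ± 0.05, and Mrtfb, an actin-regulated cofactor, by 0.36 ± 0.08. Of the MAP kinase cascade 13 of 18 rose and 2 fell. Mapk3, which encodes ERK1, rose by 0.78 ± 0.11, and the ribosomal S6 kinases Rps6ka1 and Rps6ka3 rose by 0.67 ± 0.08 and 0.50 ± 0.07. Background reads were fewer in KO libraries, and with them subtracted 2 of 6 SRF genes and 3 of 17 MAP kinase genes rose and 0 and 2 fell, while both Nab genes still rose.

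**Figure D5:**
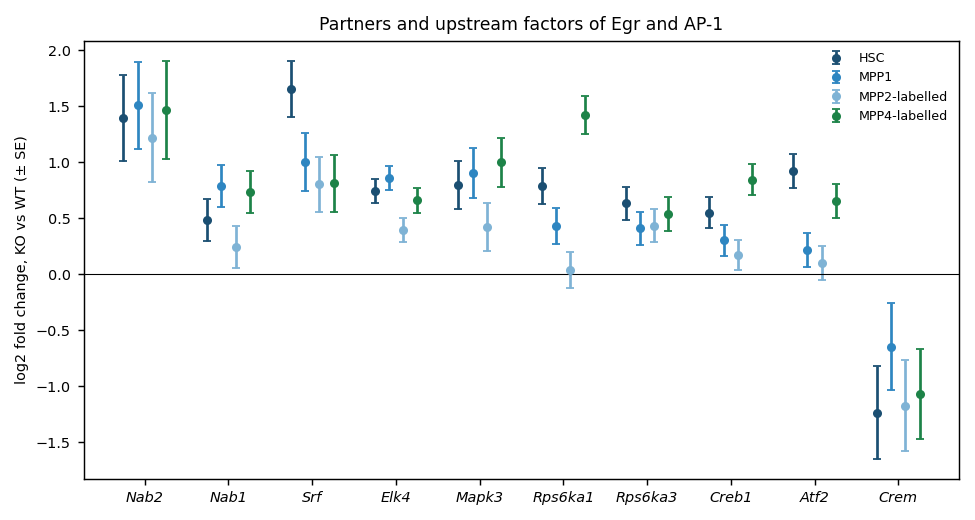
Log2 fold change in KO against WT libraries (y axis, with bars of 1 SE) of 10 named partners and upstream genes in each of the 4 populations (colours). Nab2 lies between 1.22 and 1.51 and Srf between 0.80 and 1.66, and Crem lies below 0 in each population.

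Other AP-1, ATF and Maf genes were mixed, with 7 of 17 risen and 3 fallen. Creb1 and Atf2, constitutive factors that are activated by phosphorylation, rose by 0.47 ± 0.07 and 0.47 ± 0.08, and Crem fell by 1.03 ± 0.20 (adjusted p = 4.69e-05, edgeR). Of genes described as AP-1 or Egr targets, 2 of 13 rose and 3 fell. Tgfb1, a cytokine that restrains stem cells, rose by 0.70 ± 0.05 and Ccnd1, cyclin D1, by 0.92 ± 0.22, and Hmox1, haem oxygenase, fell by 2.27 ± 0.45 (adjusted p = 6.40e-05, edgeR). With background subtracted 4 of 16 AP-1, ATF and Maf genes rose and 2 fell, and of the targets 1 rose and 3 fell. With median-of-ratios size factors 2 targets rose and 5 fell.

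Transcripts of handling stress and of other cell types were measured beside these. Of 9 heat shock genes tested, 5 rose and 0 fell in the average, with Hsp90ab1 up by 0.61 ± 0.03, and their summed level was 1292 to 1467 CPM in WT HSC and 2419 to 2672 CPM in KO HSC. With background subtracted 1 rose and 1 fell, and with median-of-ratios size factors 3 rose and 0 fell. Markers of mature monocytes, macrophages and granulocytes summed to 93.4 to 116 CPM in WT HSC and 73.6 to 91.0 CPM in KO HSC. Of 15, 1 and 6 were at 0 in all 3 libraries. In HSC 1 of 11 tested rose and 6 fell, beside 18.3% and 24.8% of all genes. In the average 2 rose and 6 fell. Markers of mature lymphocytes summed to 41.4 to 48.6 CPM in WT HSC and 25.4 to 43.3 CPM in KO HSC. Of 10 tested, 0 rose and 2 fell in HSC, and 1 rose and 4 fell in the average. Markers of stromal and endothelial cells summed to 234 to 295 and 132 to 221 CPM. Of these, 0 of 10 rose and 5 fell in HSC, and 1 rose and 8 fell in the average. With background subtracted 0 of 8 stromal and endothelial markers rose and 2 fell. In the progenitors the mean sums did not all move this way. Monocyte, macrophage and granulocyte markers averaged 117 CPM in WT and 98.0 CPM in KO MPP1, 184 and 369 CPM in MPP2, and 130 and 123 CPM in MPP4. Of 11 tested, 1 rose in MPP1, 1 in MPP2 and 2 in MPP4, and 0 fell. Their median log2 fold changes were -0.66, 0.11 and -0.45. Stromal and endothelial markers averaged 285 and 352 CPM in MPP1, 572 and 741 CPM in MPP2, and 206 and 307 CPM in MPP4. Although these sums were higher in KO, the median log2 fold changes of the 10 tested were -0.68, -0.93 and -0.61. Of the 10, 1 rose and 0 fell in MPP1, 0 and 0 in MPP2, and 1 and 1 in MPP4. Lymphocyte markers averaged 47.7 and 40.5 CPM, 57.4 and 46.2 CPM, and 58.6 and 61.3 CPM in the same order, with 0 of 10 called in each. Of all genes, 8.71% rose and 4.9% fell in MPP1, 3.73% and 4.17% in MPP2, and 11.4% and 6.47% in MPP4. HSC markers summed to 6189 to 6300 CPM in WT HSC and 11891 to 12303 CPM in KO HSC. The part of these shifts in the members' falls was not tested.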

How the data were processed

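The authors deposited 1 table of raw read counts per gene, not normalized, for 24 libraries in 8 groups of 3, with Ensembl IDs paired to symbols. Per the labels, total RNA was taken with a micro column kit and made into libraries with an Illumina kit. The submitters' processing notes name the build mm39, SAMtools 1.12 and DESeq2. The aligner, the counter and the strand setting are not given in the sources used here. Groups and replicate numbers came from the titles.

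The counts were fitted with edgeR 4.0.16 (R 4.3.3) as 1 model of 8 group means over all libraries, after filterByExpr and TMM scaling, with 16 residual degrees of freedom and a common biological coefficient of variation of 0.393, and 12 comparisons were tested. The totals per library limit what can be seen of genes with few reads. No 2 replicates were duplicates: their chi-square per gene was 4.19 to 9.72 over 24 pairs. Genes named were all members, the 5 genes most like Egr1 and Jun, and up to 3 of each list by smallest averaged p. The members and lists were chosen with earlier results of these data known. Markers of megakaryocyte and erythroid cells (0 of 9 rose, 2 fell), MPP4 lymphoid cells (1 of 8 rose, 3 fell), HSC (4 of 9 rose, 2 fell) and the sort (2 of 6 rose, 2 fell) were also counted in the average. Gene spans and exon lengths for background and levels per kb came from an annotation of GRCm38 that held 52125 of the 56748 IDs. The script was tested on simulated data. Alternatives were median-of-ratios scaling, other filters, DESeq2 1.42.0, limma-voom 3.58.1, a fit of the 6 libraries compared, a replicate block, background subtraction and leaving out each library. An average over HSC and MPP1 was added after the data were seen, because markers went against the labels MPP2 and MPP4. The promoter sequences of Egr1 and Egr3 and all protein sequences were not used here.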

Additional observations from a re-analysis of the deposited data

Results flagged for a closer look

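For 3 of the 10 genes the size of the KO against WT change differed between the populations, by the interaction of genotype with population in edgeR (quasi-likelihood, Benjamini-Hochberg adjusted). That interaction was called for 17.7% of all genes and for 34.3% of those that averaged 20 CPM or more. The 3 genes, Egr1, Fosb and Fos, averaged 204, 241 and 63.6 CPM. For Egr1 (adjusted p = 1.08e-05) the log2 fold change ranged from -2.20 in HSC to -4.0 in MPP2, and it was negative in all 4 populations. The adjusted p lay between 1.07e-15 and 0.0298 over 31 alternatives. For Fosb (adjusted p = 0.0035) the log2 fold change ranged from -1.13 in MPP4 to -1.98 in MPP2, with adjusted p-values of 2.57e-04 to 0.0366 over the same alternatives. For Fos (adjusted p = 0.0459) it ranged from -1.62 in MPP4 to -3.03 in HSC, and the difference was lost under 18 of 31 alternatives, at 0.562 without the third KO MPP4 library.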

How the results depend on the processing

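The number of members called, all of them falls, stayed at 9 in the average over the populations when each library in turn was left out. Leaving out 1 library gave 7 to 8 in HSC, 6 to 7 in MPP1, 5 to 8 in MPP2 and 4 to 5 in MPP4, and 2 to 3 for the interaction. It gave 2 for WT MPP1, 1 for WT MPP2, 3 to 4 for WT MPP4 and 2 to 3 for each KO population against KO HSC. In the KO populations the calls beyond Egr1 and Fosb were rises, of Atf3 or, in KO MPP2, of Jun. The lowest count in MPP2, 5, came without the third KO MPP2 library. The count in MPP4 was 4, and 7 with median-of-ratios size factors (8.77% of all genes fell) and 8 with DESeq2 (11.3%). WT MPP1 against WT HSC had 2 calls, and 1 with background subtracted. WT MPP2 had 1, and 2 with limma-voom or a fit of the 6 libraries compared, where the added call was a rise of Junb. Fewer genes of the whole table were called after background subtraction, with 854 risen and 823 fallen in HSC against 4012 and 5450. With median-of-ratios scaling they were 2990 and 5848. With background subtracted, 2 of 9 HSC markers rose and 4 fell in the average, 2 of 7 MPP4 lymphoid markers rose and 3 fell, 1 of 6 sort markers rose and 3 fell, and 0 of 9 megakaryocyte and erythroid markers rose and 3 fell. The causes were not tested.

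The replicate numbers showed no pairing of WT with KO libraries within a population, with correlations of -0.014 to 0.019 over 12 same-numbered pairs. Whether the same animal gave libraries of several populations was not checked. The replicate block, which is shared by both genotypes, does not model that. With the replicate block 7 members fell in HSC (24.3% of all genes), 7 in MPP1 (4.84%), 7 in MPP2 (3.98%) and 6 in MPP4 (6.31%). Egr3 (0.0568) and Jund (0.0547) lost their call in HSC, Egr3 in MPP2 (0.0901) and Fos its interaction (0.056). Junb (0.0477) and Atf3 (0.0236) gained one in MPP4, as did Junb in WT MPP4 (0.0409).

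Signs turned in values that passed no test. Against WT HSC these were, in WT MPP1, Egr3 (0.10 with limma-voom, -0.95 to 0.12 without 1 library) and Egr2 (-0.064 with background subtracted, -0.35 to 0.91). In WT MPP2 they were Fos (-0.019 with median-of-ratios scaling and with DESeq2, -0.25 with background subtracted, -0.011 to 0.12), Egr1 (0.0055 without a filter, 0.0017 with limma-voom, -0.033 to 0.025), Jun (-0.21 with background subtracted, -0.0033 to 0.22), Egr2 (-0.75 to 1.47) and Jund (-0.47 to 0.22), and in WT MPP4 Egr3 (-0.024 to 0.95). Against KO HSC they were, in KO MPP1, Junb (-0.023 with limma-voom, -0.27 to 0.31), Egr3 (-0.11 to 0.77) and Fos (-0.14 to 0.39). In KO MPP2 they were Egr3 (-0.11 with limma-voom, -2.77 to 1.45), Atf3 (-0.33 to 1.65), Fos (-0.11 to 0.57) and Jund (-0.87 to 0.65). In KO MPP4 they were Fosl2 (0.12 with background subtracted), Jun (0.15 with background subtracted, -0.54 to 0.31), Egr3 (-0.45 to 0.85) and Fos (-0.42 to 0.67). Egr2 in KO against WT HSC ranged from -0.39 to 0.88. Of all values recomputed, 1869 kept direction and call, 65 lost the call, 26 gained one and 44 changed sign.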
